A study of Mus musculus with 4 samples.

Results

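Peroxisome assembly factors and peroxisomal enzymes were followed in the liver of mice on an ethanol diet, with and without a binge of ethanol. The set was every symbol of the count table that begins with Pex followed by a digit (17 genes) together with 19 named transporters and enzymes, which made 36 of the 22155 symbols in the table. Sorted by role, 16 are assembly factors (peroxins), 3 are ABC transporters of subfamily D, 16 are enzymes, and Pex5l is a paralog of the import receptor gene Pex5. All 36 were found by symbol in the GENCODE annotation of GRCm38 as protein-coding genes, and 35 passed the filter on low counts. Pex5l did not pass: it had 7 and 0 counts in the ethanol-alone libraries and 7 and 5 after gavage.

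RNA was sequenced from whole liver of wild-type C57BL/6 mice, an inbred laboratory strain, aged 8 to 10 weeks. All of them drank a Lieber-DeCarli liquid diet with 5% ethanol for 10 days, so no library comes from mice without ethanol. The ethanol-alone group has 2 libraries, and the gavage group has 2 libraries from mice that also received 5 g of ethanol per kg body weight by gavage and were killed 9 hours later. The titles set the groups, because the protocol text describes the binge for every sample. The labels do not say whether replicates came from separate animals, and each p-value therefore reflects nothing more than the spread among these 4 libraries, which may be technical. The sources used here name neither the sex of the mice nor a gavage without ethanol, nor the hour at which the ethanol-alone mice were killed.

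The peroxisome is an organelle bounded by a single membrane that oxidises very long-chain and branched fatty acids, bile acid precursors, glyoxylate, D-amino acids and, in the mouse, urate. Its enzymes are made in the cytosol and imported folded: the receptors PEX5 and PEX7 bind short targeting signals, dock at the membrane, and are returned to the cytosol by a ubiquitin ligase and an ATPase motor. In rodent liver the genes of its beta-oxidation enzymes and of the division factor PEX11A are textbook targets of the fatty acid receptor PPARA, and catalase, which breaks down the hydrogen peroxide formed inside, can also oxidise ethanol.

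Library totals were 28791281 to 30347558 counts, and the tested members ranged from Pex10, with 121 to 184 counts a library, to Uox, with 52522 to 78568. Levels are CPM, read counts scaled to a common library size by trimmed-mean (TMM) factors, and values are given for replicate 1 and then replicate 2 of a group. Ethanol-alone replicate 1 stood apart in genes that differ between male and female mouse liver: the summed level of 5 male-type genes was 1133 CPM there and 25.2 to 47.7 CPM in the other libraries, while 5 female-type genes summed to 80.1 CPM there and to 1210 to 1710 CPM elsewhere. None of 4 Y-linked genes had more than 1 count in any library. Both libraries numbered 1 held more skeletal muscle RNA, with 273 and 546 CPM over 5 markers against 8.79 and 1.03 CPM in those numbered 2. Adipose markers other than Car3 were also higher in the libraries numbered 1, with 61.1 and 98.3 CPM over 6 markers against 7.96 and 12.2 CPM. Car3 itself, on the same marker list, did not follow the replicate number. It stood at 1975 and 1924 CPM in ethanol alone and at 549 and 558 CPM after gavage. The 6 hepatocyte markers summed to 138322 and 121937 CPM in ethanol alone and to 99087 and 122955 CPM after gavage, most of it Alb. Of the Kupffer cell markers, 8 of 8 lay lower after gavage, with sums of 548 and 567 against 324 and 365 CPM.

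The enzyme genes lay lower after gavage, and by more than the assembly factors. The median log2 fold change (gavage over ethanol alone) of the 16 enzymes was -0.76, a ratio of 0.590, and that of the 16 assembly factors was -0.09, a ratio of 0.937, with 0.02 over all 13309 genes tested. Of the enzymes 13 lay lower and 3 higher. Of the assembly factors 10 lay lower and 6 higher, a split in which Pex13 turned to higher on library totals and Pex3 to lower on upper-quartile factors. Over all tested genes 48.3% lay lower. The 3 transporter genes had a median of -0.31. The classes were not tested against each other, since genes of a class are not replicates.

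No member passed a Benjamini-Hochberg adjusted p of 0.05 in edgeR's quasi-likelihood test, in which 0 of 13309 genes (0%) passed. The smallest adjusted p was 0.133 among members and 0.0638 over all genes. At an unadjusted p under 0.05, which 18.8% of all genes met (9.85% lower and 8.91% higher), 8 of 16 enzymes and 1 of 16 assembly factors lay lower and no member lay higher. DESeq2 called 6 enzymes and 1 assembly factor lower at an adjusted p under 0.05, where it called 4.9% of all genes lower, and edgeR's likelihood-ratio test called 4 enzymes and no assembly factor, against 1.98% of all genes. limma-voom called none of 13309 genes, with 2449 at an unadjusted p under 0.05, among them 8 enzymes and 1 assembly factor, all 9 of them lower. So which members count as called depends on the tool, and the p-values below are those of the quasi-likelihood test unless another tool is named. A signed value in parentheses after a gene's levels is its log2 fold change.

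Without any model, the 2 gavage libraries lay below both ethanol-alone libraries for 11 of 16 enzymes and above them for 1, and for 6 and 2 of 16 assembly factors. The same was true of 27.2% of all tested genes in the first direction and 27.5% in the second. Enzyme genes are more abundant than assembly genes, so the background over their range of mean CPM (28.8 to 2042) is given too. Among the 4565 genes in that range, 33.7% had both gavage libraries below and 14.3% lay lower at an unadjusted p under 0.05. Their median log2 fold change was -0.02. The median level of these genes was 62.2 CPM, against 322 CPM for the enzymes, so this background is not matched to the enzymes' level. In bulk tissue, fewer cells of a type and less RNA per cell cannot be told apart.

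**Figure D1:**
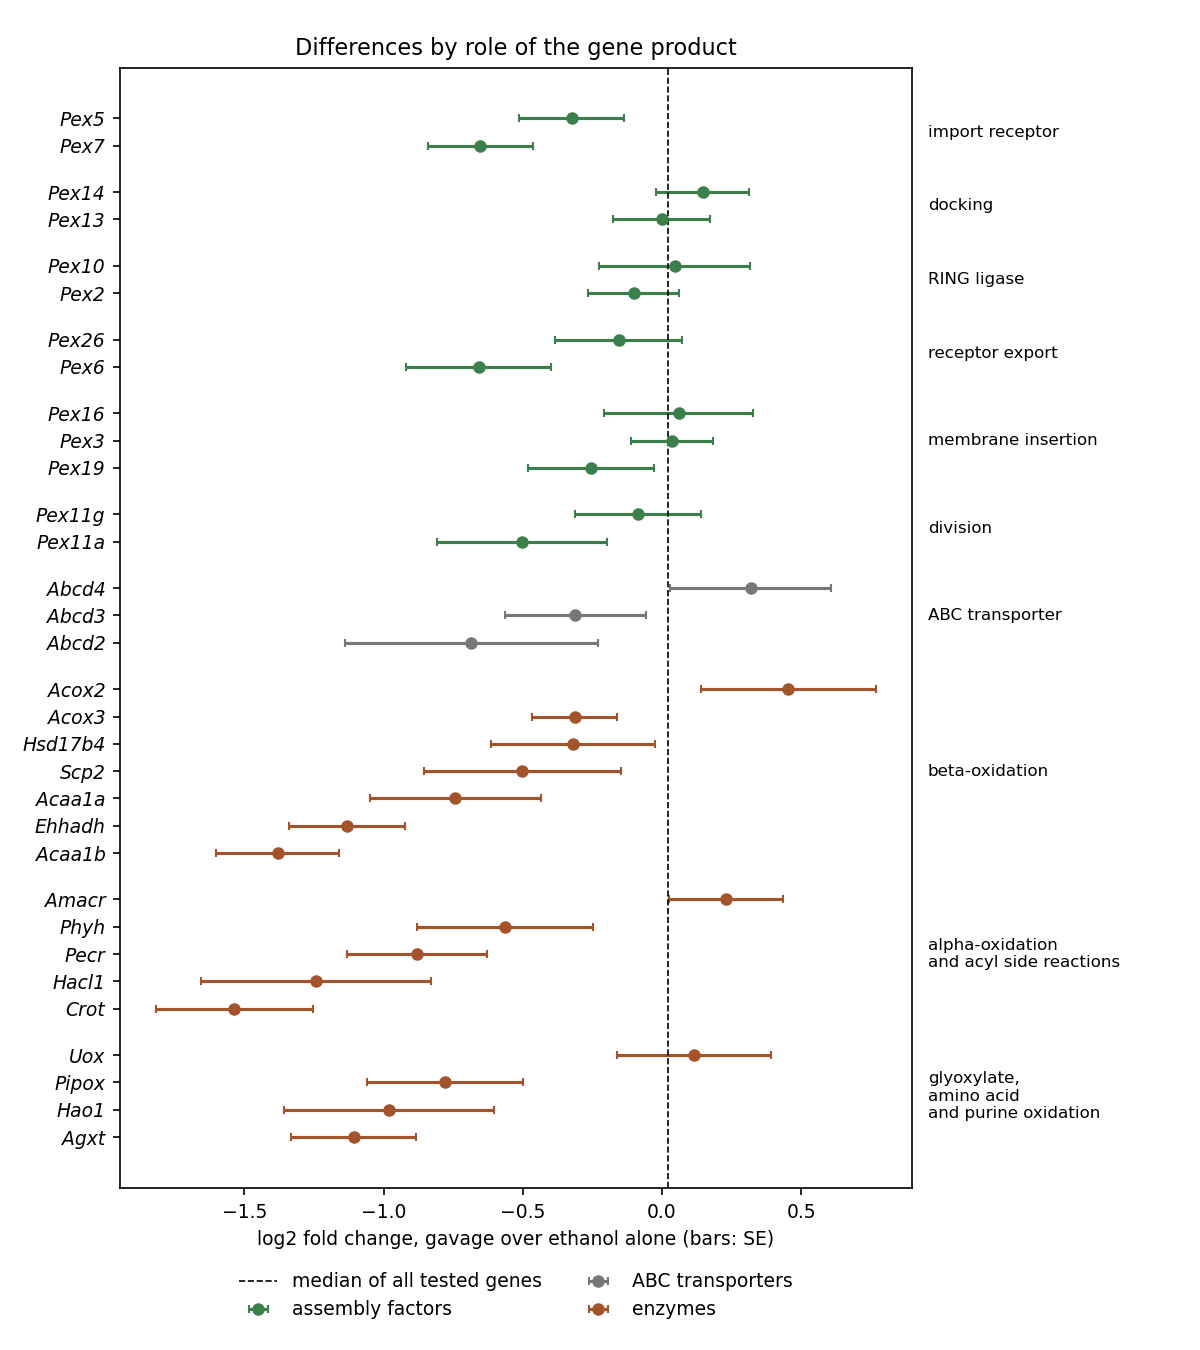
Log2 fold change of the tested members named in the text (points) with its standard error (bars), grouped by the role of the gene product, with the median of all tested genes as a dashed line. Most enzyme points lie left of the line, down to -1.54 for Crot, while the docking and ligase peroxins lie around it.

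The enzyme median separated the groups, and the assembly median did so on 1 of 2 scales. For every member the log2 CPM was taken relative to its own mean over the 4 libraries, and the median over a class was formed per library. For the enzymes it was 0.57 and 0.20 in ethanol alone and -0.61 and -0.11 after gavage. For the assembly factors it was 0.08 and 0.04 in ethanol alone and -0.11 and 0.01 after gavage. On this scale the groups did not overlap in either class, and in both the libraries numbered 1 were the more extreme. Taken relative to the ethanol-alone mean instead, the assembly median overlapped, with gavage replicate 2 at -0.013 and ethanol-alone replicate 2 at -0.016, and the enzyme median did not, at 0.10 and -0.10 against -1.05 and -0.49. Enzyme median minus assembly median came to 0.49 and 0.15 in ethanol alone and -0.50 and -0.13 after gavage. The within-group SD of that difference was 0.25, close to the gap between the nearest libraries of the groups. Summed over the class, the enzymes came to 10309 and 8635 CPM in ethanol alone and 6138 and 6877 CPM after gavage, and the assembly factors to 975 and 881 CPM in ethanol alone and 751 and 829.6 CPM after gavage.

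Each library was also left out in turn. The enzyme median was -0.52 without ethanol-alone replicate 1, -0.88 without ethanol-alone replicate 2, -0.51 without gavage replicate 1 and -1.07 without gavage replicate 2. The assembly median was -0.14, -0.21, -0.01 and -0.14 in the same order. Enzymes lower at an unadjusted p under 0.05 numbered 6 of 16 (7.55% of all genes), 8 of 16 (14.1%), 4 of 16 (3.87%) and 8 of 16 (4.9%). The corresponding number of assembly factors was 2, 3, 0 and 0 of 16. The enzyme median stayed below the assembly median in each of these 4 fits. Leaving out gavage replicate 1 gave the fewest, and the enzymes that still passed there were Acaa1b, Ehhadh, Crot and Agxt.

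**Figure D2:**
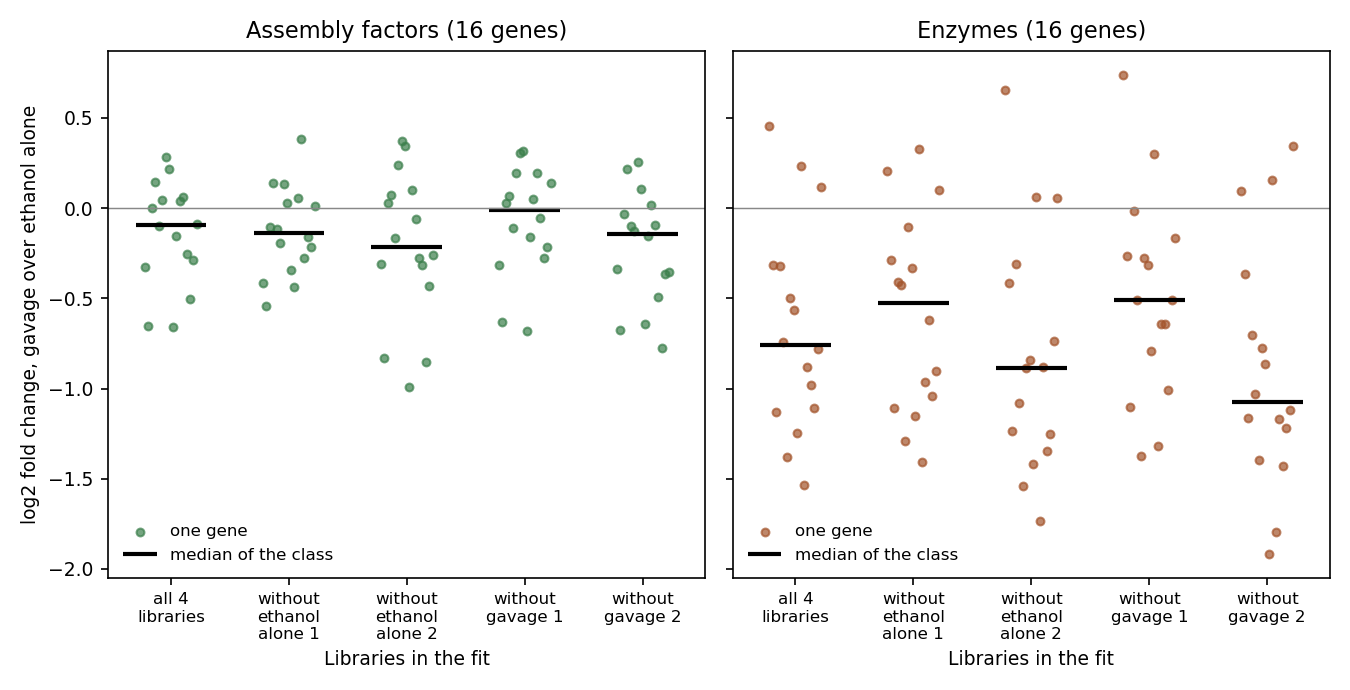
Log2 fold changes of the 16 assembly factors (left) and the 16 enzymes (right) with all 4 libraries and with each left out; every point is a gene and each bar is the median of the class. The enzyme median moves between -1.07 and -0.51 and the assembly median between -0.21 and -0.01.

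The promoter sequences of 4 members are shown because the enzyme genes lay lower together: Acaa1b and Crot, with the largest differences among the enzymes, Acaa1a, the close paralog of Acaa1b, and Pex13, the assembly factor with the smallest difference. Each runs 5′ to 3′ on the gene's strand from 250 bases before to 50 bases after the RefSeq start on GRCm38.p6, and capitals mark 2 common promoter motifs read on either strand: the CCAAT box, spelled as in its name, and the GC box, spelled GGGCGG. Their positions are chr9:119157044-119157343 on the minus strand for Acaa1b, chr9:119341044-119341343 on the plus strand for Acaa1a, chr5:8997097-8997396 on the minus strand for Crot, and chr11:23665834-23666133 on the minus strand for Pex13.
Acaa1b: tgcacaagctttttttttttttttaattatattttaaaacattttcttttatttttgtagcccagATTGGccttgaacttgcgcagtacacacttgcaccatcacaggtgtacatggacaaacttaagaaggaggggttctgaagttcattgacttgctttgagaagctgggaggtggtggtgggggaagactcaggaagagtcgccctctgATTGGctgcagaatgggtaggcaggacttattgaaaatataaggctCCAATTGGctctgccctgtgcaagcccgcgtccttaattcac
Acaa1a: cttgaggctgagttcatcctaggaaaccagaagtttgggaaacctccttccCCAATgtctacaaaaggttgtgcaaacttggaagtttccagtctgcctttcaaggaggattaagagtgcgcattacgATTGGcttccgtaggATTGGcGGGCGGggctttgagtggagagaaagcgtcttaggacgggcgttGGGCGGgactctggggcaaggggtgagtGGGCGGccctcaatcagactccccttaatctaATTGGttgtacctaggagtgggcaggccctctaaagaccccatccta
Crot: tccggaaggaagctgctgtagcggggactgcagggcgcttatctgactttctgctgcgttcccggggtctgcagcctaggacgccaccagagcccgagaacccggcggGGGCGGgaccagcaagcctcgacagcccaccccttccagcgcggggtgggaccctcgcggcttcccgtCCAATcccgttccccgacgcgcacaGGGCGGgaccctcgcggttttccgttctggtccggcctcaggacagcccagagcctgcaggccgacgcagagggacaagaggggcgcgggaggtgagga
Pex13: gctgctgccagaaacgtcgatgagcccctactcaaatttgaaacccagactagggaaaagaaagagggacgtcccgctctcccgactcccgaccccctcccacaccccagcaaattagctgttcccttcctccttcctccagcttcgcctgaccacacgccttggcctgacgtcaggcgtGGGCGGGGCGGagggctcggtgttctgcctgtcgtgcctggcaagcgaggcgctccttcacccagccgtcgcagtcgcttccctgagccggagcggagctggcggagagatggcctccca

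Acaa1b held 4 CCAAT matches and no GC box, and the last pair overlap on opposite strands. Acaa1a held 4 CCAAT matches and 3 GC boxes, Crot 1 and 2, and Pex13 no CCAAT match and 2 overlapping GC boxes. RefSeq promoters were at hand for 26 of the 36 members, 11 of them assembly factors and 14 enzymes. A member was counted once, when any of its windows held the letters. The values over all promoters count every window singly, so the 2 sides are not quite alike. GGGCGG was in 9 of 11 assembly promoters and 7 of 14 enzyme promoters, against 35.7% of all 32851 promoters of the same length, and CCAAT was in 3 of 11 and 7 of 14, against 37.4%. The ratio of observed to expected CpG, taken from the window with the highest ratio, had a median of 0.843 over the assembly promoters, 0.488 over the enzyme promoters and 0.384 over all. The element bound by PPARA with its partner RXR, searched as the exact letters of a direct repeat of AGGTCA with 1 base between the copies, was in 0 of 26 member promoters and in 0.0396% of all promoters. The single AGGTCA was in the windows of Phyh, Scp2 and Pex11g, 3 of 26, against 16.3% of all. These are counts of letters in a short window and not of bound sites.

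Both import receptor genes lay lower after gavage. Pex7 encodes the receptor for the N-terminal targeting signal carried by the Acaa1a and Acaa1b thiolases and by phytanoyl-CoA hydroxylase. It stood at 101 and 84.3 CPM in ethanol alone and at 58.0 and 59.6 CPM after gavage. Both gavage libraries lay below both ethanol-alone libraries, by more than the spread within either group. The log2 fold change was -0.65 (SE 0.19), with an unadjusted p of 0.0167, an adjusted p of 0.198 and an adjusted p of 0.0291 in DESeq2, the only assembly factor called by it. Without ethanol-alone replicate 1 the adjusted p in DESeq2 was 0.439. The gene lies at chr10:19853900-19907689 on the minus strand. Pex5, the receptor for the common C-terminal signal, stood at 120.0 and 132 CPM against 100 and 101 CPM. Its groups did not overlap either, and the difference was smaller (log2 fold change -0.32, SE 0.19, adjusted p = 0.397).

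The docking and ligase genes described here differed little. Pex13, a membrane protein of the docking site, stood at 66.4 and 74.1 CPM in ethanol alone and 68.9 and 71.5 CPM after gavage, with the gavage values inside the ethanol-alone range (log2 fold change -0.00, SE 0.17). Pex14, its docking partner, stood at 48.0 and 46.8 against 55.3 and 49.7 CPM. Exons of Pex14 share 31.4% of their bases with the gene model Gm17029 on the opposite strand, so its reads may not all be its own. Both gavage libraries were the higher ones for Pex14, by a log2 fold change of 0.15 (SE 0.17). Among the RING-finger subunits that ubiquitinate the receptor, Pex2 stood at 64.7 and 63.6 against 60.2 and 59.3 CPM, a gap without overlap whose log2 fold change was -0.10 (SE 0.16). Pex10, the tested member with the lowest level per kilobase, was at 4.43 and 6.08 against 4.84 and 6.01 CPM, with overlapping groups. The unadjusted p of these 4 genes was 0.417 or above.

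Of the export genes, Pex6 encodes an ATPase of the motor that pulls PEX5 out of the membrane, and Pex26 encodes the anchor of that motor. Pex6 stood at 128 and 83.2 CPM in ethanol alone and 67.9 and 65.8 CPM after gavage. Both gavage values were below, and ethanol-alone replicate 1 was the highest by far. Its log2 fold change was -0.66 (SE 0.26, unadjusted p = 0.0506, adjusted p = 0.267), and -0.34 without that library. Pex26 stood at 24.9 and 36.8 against 27.8 and 27.6 CPM, with overlapping groups (-0.16, SE 0.23).

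The genes for membrane protein insertion had differences near those of all genes. Pex3, the membrane docking factor of this step, stood at 27.3 and 25.7 against 26.9 and 27.4 CPM, the narrowest relative range of any member. Its log2 fold change was 0.04 (SE 0.15), and it shares 11.6% of its exon bases with Adat2 on the opposite strand. Pex16, which recruits PEX3, ranged more widely, at 69.3 and 44.6 against 53.7 and 65.1 CPM, and overlapped. Pex19, the soluble chaperone of membrane proteins and the assembly factor with the highest level per kilobase, stood at 116 and 115 against 82.6 and 112 CPM. For Pex19 only gavage replicate 1 was clearly lower, and the log2 fold change was -0.25 (SE 0.23), and -0.05 without that library.

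The division genes described here, Pex11a and Pex11g, had log2 fold changes below 0, neither past an unadjusted p of 0.05. Pex11a, the inducible elongation factor, stood at 102 and 64.1 against 48.7 and 68.3 CPM; the groups overlapped and ethanol-alone replicate 1 was highest (-0.50, SE 0.31). Without that library its log2 fold change was -0.16. Pex11g stood at 44.7 and 37.9 against 32.4 and 45.4 CPM with overlap (-0.09, SE 0.23), and its sign turned without ethanol-alone replicate 1 or without gavage replicate 1. Exons of Pex11g share 48.6% of their bases with the gene model Gm44775 on the opposite strand, so its reads may not all be its own.

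The ABC transporters carry acyl-CoA across the peroxisomal membrane, except for ABCD4, which acts in lysosomal cobalamin export. Abcd3, the most abundant per kilobase, stood at 650.4 and 552 CPM in ethanol alone and 422 and 547 CPM after gavage. The gavage values lay below, though the replicates numbered 2 were nearly equal, and the log2 fold change was -0.31 (SE 0.25, adjusted p = 0.54), and -0.13 without gavage replicate 1. Abcd2 stood at 80.5 and 111 against 34.6 and 84.7 CPM. Its low value rests on gavage replicate 1: the log2 fold change was -0.69 (SE 0.45) with it and -0.18 without it. Abcd4 stood at 15.6 and 13.6 against 13.6 and 22.9 CPM, where gavage replicate 2 alone was high (0.32, SE 0.29, and -0.11 without that library).

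**Figure D3:**
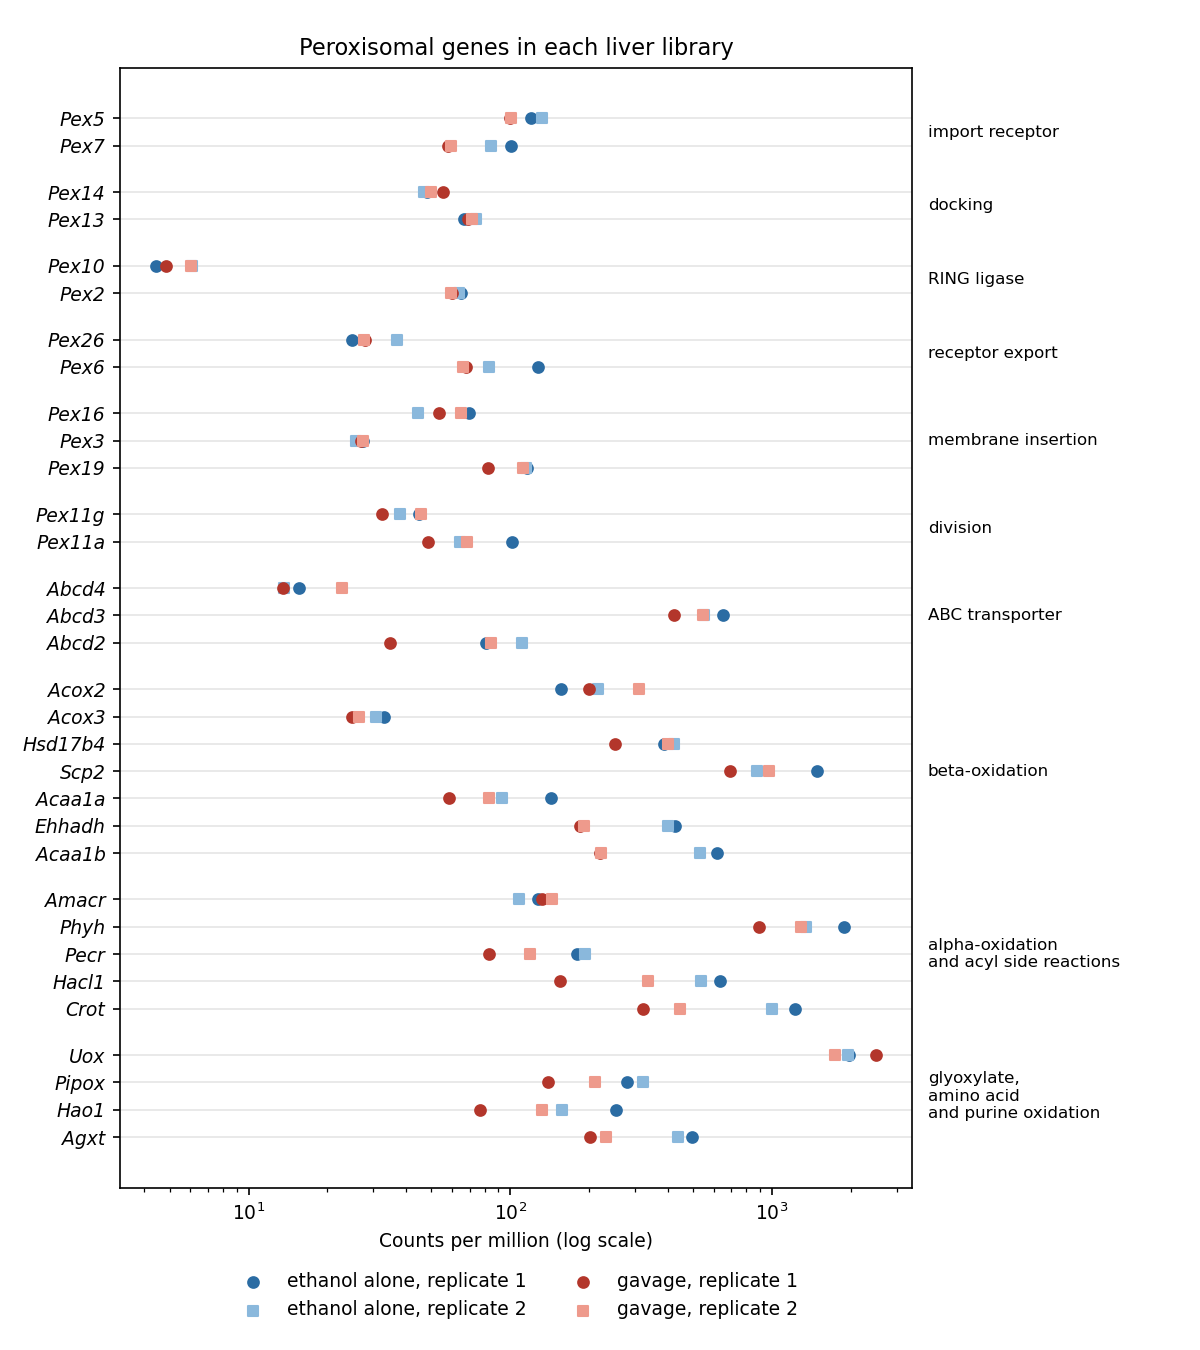
CPM of the tested members named in the text (log axis) in the 4 libraries, circles for replicate 1 and squares for replicate 2, blue for ethanol alone and red for gavage. For Ehhadh, Acaa1b, Crot and Agxt the red points lie together to the left of the blue ones. For some peroxins, such as Pex13, Pex3 and Pex16, the colours mix, and for others, such as Pex7 and Pex5, they do not.

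Beta-oxidation in the peroxisome shortens acyl chains by an oxidase, a bifunctional hydratase and dehydrogenase, and a thiolase. Among its genes, Acaa1b and Ehhadh differed most. Acaa1b, a thiolase at chr9:119148023-119157093 on the minus strand, stood at 619.6 and 532 CPM in ethanol alone and at 219.9 and 222 CPM after gavage. Ehhadh, the L-bifunctional protein at chr16:21761287-21787807 on the minus strand, stood at 427 and 399.7 CPM against 185 and 192 CPM. For both genes the libraries of a group lay close together and the groups far apart. Acaa1b was 61.6% lower after gavage (log2 fold change -1.38, SE 0.22, adjusted p = 0.133; DESeq2 adjusted p = 9.81e-10). Ehhadh was 54.4% lower (log2 fold change -1.13, SE 0.21, adjusted p = 0.133; DESeq2 adjusted p = 1.03e-07). Without ethanol-alone replicate 1 the log2 fold changes were -1.29 and -1.11.

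Acaa1a, the second thiolase gene, lies at chr9:119339676-119350299 on the plus strand and stood at 144 and 93.4 CPM in ethanol alone and 58.3 and 83.3 CPM after gavage. Its gavage libraries lay below, with a wider spread than those of Acaa1b (-0.74, SE 0.31, adjusted p = 0.278), and the log2 fold change was -0.43 without ethanol-alone replicate 1. The principal transcripts of the 2 thiolase genes are identical at 1380 of 1428 aligned bases (96.6%), so reads may be split or lost between them and the separate values are uncertain. Acaa1b also shares 13.3% of its exon bases with Dlec1 on the opposite strand.

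The other beta-oxidation genes showed smaller and less even differences. Hsd17b4, the D-bifunctional protein that handles branched chains and bile acid precursors, stood at 388 and 425 against 251 and 401 CPM, with only gavage replicate 1 low (-0.32, SE 0.30, and -0.02 without that library). Scp2, whose longer product is the thiolase for branched chains, stood at 1482 and 879.7 against 694 and 975 CPM with overlap (-0.50, SE 0.35), and at -0.10 without ethanol-alone replicate 1. Acox3, an oxidase of branched acyl-CoA, stood at 33.0 and 30.8 against 24.8 and 26.5 CPM without overlap (-0.31, SE 0.15). Acox2, the oxidase of bile acid precursors, had the largest difference upwards, at 156 and 217 against 200.2 and 311 CPM. The groups of Acox2 overlapped and gavage replicate 2 was the highest (0.45, SE 0.32, adjusted p = 0.474). Its log2 fold change was 0.09 without gavage replicate 2 and 0.21 without ethanol-alone replicate 1. Of the 7 beta-oxidation genes, Acaa1b and Ehhadh were the 2 with an unadjusted p under 0.05.

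Crot, at chr5:8966033-8997324 on the minus strand, encodes the octanoyltransferase that hands shortened acyl groups to carnitine, and had the largest difference of all members. It stood at 1231 and 1000 CPM in ethanol alone and at 323 and 446 CPM after gavage. Both ethanol-alone libraries were far above both gavage libraries. The level was 65.5% lower (log2 fold change -1.54, SE 0.28, adjusted p = 0.133; DESeq2 adjusted p = 7.15e-07), and the log2 fold change was -1.41 without ethanol-alone replicate 1 and -1.32 without gavage replicate 1. Pecr, the trans-2-enoyl-CoA reductase, stood at 179.6 and 194 against 83.3 and 119.5 CPM. It too had groups apart, 45.7% lower (-0.88, SE 0.25, adjusted p = 0.197; DESeq2 adjusted p = 0.0131, and 0.126 without ethanol-alone replicate 1).

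Alpha-oxidation removes 1 carbon from 3-methyl-branched acids such as phytanic acid before beta-oxidation can begin. Phyh, its first enzyme, had the highest level per kilobase of all members and stood at 1882 and 1352 CPM in ethanol alone and 891 and 1297 CPM after gavage. The gavage libraries lay below, but gavage replicate 2 was close to ethanol-alone replicate 2 (-0.56, SE 0.32, adjusted p = 0.384). Without ethanol-alone replicate 1 its log2 fold change was -0.33, and without gavage replicate 1 it was -0.32. Hacl1, the lyase of the next step, stood at 633 and 536 CPM against 156 and 338 CPM. Both gavage libraries were lower, and replicate 1 was well below replicate 2 (-1.24, SE 0.41, adjusted p = 0.226; DESeq2 adjusted p = 0.019, and 0.282 without ethanol-alone replicate 1). The log2 fold change of Hacl1 was -0.79 without gavage replicate 1. Exons of Hacl1 share 58.2% of their bases with the same-strand model Gm49387, which has no row in the table, and how such reads were counted is not given. Amacr, the racemase that prepares branched acyl-CoA for oxidation, was the 1 enzyme with both gavage libraries above, at 128 and 109 against 132 and 145 CPM (0.23, SE 0.20, adjusted p = 0.574).

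Of the 4 enzymes that act on glyoxylate, amino acids and urate, 3 lay lower. Agxt, which turns glyoxylate into glycine and lies at chr1:93135240-93145421 on the plus strand, stood at 497 and 437 CPM in ethanol alone and 201 and 232 CPM after gavage. Its groups were far apart, with a level 53.6% lower (-1.11, SE 0.22, adjusted p = 0.142; DESeq2 adjusted p = 8.39e-06). Hao1, the glycolate oxidase that forms glyoxylate, stood at 255 and 157 against 76.7 and 132 CPM, a gap without overlap but with wide spread (-0.98, SE 0.38, unadjusted p = 0.0466). Without ethanol-alone replicate 1 its log2 fold change was -0.62. Pipox, the oxidase of pipecolate and sarcosine, stood at 281 and 322 against 139.7 and 212 CPM, also without overlap (-0.78, SE 0.28, unadjusted p = 0.0366, and -0.51 on the log2 scale without gavage replicate 1). Uox, the urate oxidase that forms the crystalline core of rodent liver peroxisomes, did not share this: it stood at 1973 and 1950.2 CPM against 2502 and 1745 CPM. Its gavage libraries lay on either side of the ethanol-alone pair (0.11, SE 0.28, adjusted p = 0.858), and without gavage replicate 1 the log2 fold change was -0.17.

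Per kilobase of principal transcript, the scale on which levels of different genes can be compared, the median was 129 CPM per kb for the enzymes, 15.5 for the assembly factors, 14.1 for the transporters and 5.11 for all tested genes. Phyh (943), Uox (746), Scp2 (382), Crot (250.4) and Acaa1b (236) led. The first assembly factor in this order was Pex19 in place 15 (55.5), followed by Pex16 in place 18 (41.8), and Pex10 (3.16) came last of those tested. The highest and third-highest members, Phyh and Scp2, had log2 fold changes of -0.56 and -0.50, Uox, the second, one of 0.11, and Crot and Acaa1b, the next in order, -1.54 and -1.38. Median transcript length (2576.5 and 2608.5 bases) and GC content (51.7% and 49.0%) were close between assembly factors and enzymes.

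**Figure D4:**
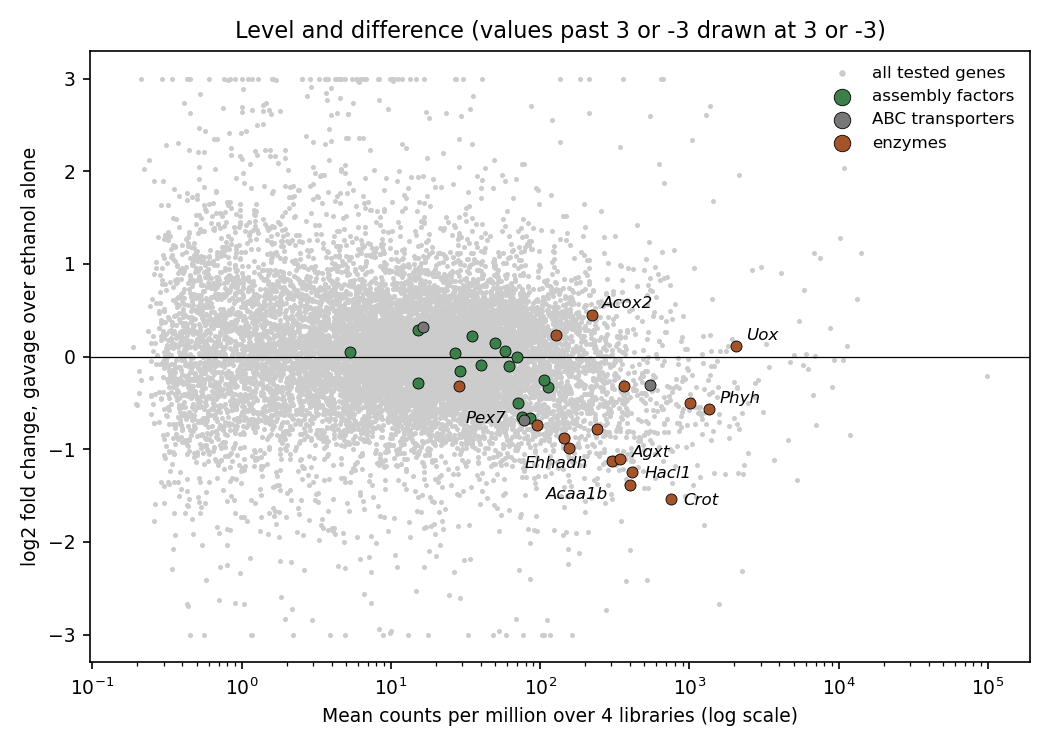
Mean CPM over the 4 libraries (log axis) against the log2 fold change for all tested genes (grey) and for the members by class. The enzymes lie at higher levels than the assembly factors and mostly below 0, with Acox2, Amacr and Uox above it.

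Within the enzymes, gavage replicate 1 lay below gavage replicate 2 for 15 of 16 genes and ethanol-alone replicate 1 above replicate 2 for 12 of 16. The same held for 12 and 10 of 16 assembly factors, and for 7233 and 6693 of the 13309 tested genes. The hepatocyte marker sum, most of it Alb, was lowest in the same library, gavage replicate 1, and highest in the same library, ethanol-alone replicate 1. Apoa1, Ttr and Serpina1a had their extremes in those libraries too, and Apob and Hnf4a did not. Apob was lowest in ethanol-alone replicate 1 (6468 CPM) and Hnf4a in gavage replicate 2 (754 CPM). Neutrophil marker RNA was highest in gavage replicate 1 as well, at 16.7 CPM over 6 markers against 4.13 to 6.05 CPM. The part of cell content, of sex-type expression and of muscle and adipose RNA in the enzyme difference was not tested. With ethanol-alone replicate 1 left out, DESeq2 called 4 members lower (Ehhadh, Acaa1b, Crot and Agxt), against 1.35% of all genes.

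Genes outside the set whose products are peroxisomal, or act on peroxisomes, were taken from a list of 61, of which 57 were tested. Of these, 47 lay lower and 10 higher, with a median log2 fold change of -0.58, and 17 lay lower and 1 higher at an unadjusted p under 0.05, against 9.85% and 8.91% of all genes. The number lower was 9 without ethanol-alone replicate 1 (7.55% of all genes) and 2 without gavage replicate 1 (3.87%). DESeq2 called 9 of them lower, against 4.9% of all genes, and none higher. With ethanol-alone replicate 1 left out it called 1 of them, Cat. Cat, encoding catalase, stood at 3139 and 2857 CPM in ethanol alone and 1164 and 1339 CPM after gavage. Its groups were far apart (-1.26, SE 0.24, adjusted p = 0.134; DESeq2 adjusted p = 5.10e-08, and 0.000127 without ethanol-alone replicate 1).

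The others named by rank of p with groups apart were 4 lower genes and 5 higher ones. Paox, the polyamine oxidase, stood at 32.3 and 21.8 against 9.11 and 5.95 CPM (-1.84, SE 0.31, adjusted p = 0.133; DESeq2 adjusted p = 2.91e-05, and 0.0685 without ethanol-alone replicate 1). Acsl1, which activates long-chain fatty acids, stood at 1198 and 863 against 448 and 569.9 CPM (-1.02, SE 0.28). Gstk1, a glutathione transferase, stood at 120.3 and 97.5 against 46.9 and 67.2 CPM, and Acbd5, which tethers peroxisomes to the endoplasmic reticulum, at 256 and 231 against 145 and 158 CPM. On the higher side, Ddo, the D-aspartate oxidase, stood at 17.0 and 21.9 against 29.5 and 36.0 CPM (0.75, SE 0.21, adjusted p = 0.192). Of the other 4 named on that side, Nudt19, Usp9x, Agps (the second enzyme of ether lipid synthesis) and Zadh2, none had an unadjusted p under 0.05. Usp9x, Agps and Zadh2 had log2 fold changes of 0.54, 0.51 and 0.36, and of 0.09, 0.27 and 0.08 without ethanol-alone replicate 1. Nudt19 was at 0.58, and at 0.27 without gavage replicate 1. The median of this list lay between those of the enzymes and the assembly factors.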

How the data were processed

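The authors deposited raw counts, whole numbers in 1 row per symbol and 1 column per library. STAR 2.6.0a, HTSeq, bcl2fastq 2.20.0.422, edgeR and the build GRCm38 are listed in the submitters' processing notes, with no role stated. Which annotation and strand setting were used, and how reads mapping to several genes were treated, is not given in the sources used here. Reads of paralogs and of overlapping genes could thus be split, joined or lost.

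Genes were kept with filterByExpr by group (minimum count 10, minimum total 15), which left 13309 of 22155. edgeR 4.0.16 in R 4.3.3 was used with TMM factors (0.951 and 0.998 in ethanol alone, 1.05 and 1.00 after gavage) and a 2-sided quasi-likelihood test between the groups, with no covariate, adjusted by Benjamini-Hochberg over all genes tested. The common coefficient of variation was 0.311. The SE is the absolute log2 fold change over the square root of F. A level of 3 counts was 0.0955 to 0.110 CPM, which covers counting error only. Alternatives were upper-quartile and DESeq2 1.42.0 size factors, library totals, no filter, a stricter filter, DESeq2, limma-voom (limma 3.58.1), the likelihood-ratio test, a replicate block and each library left out. A length and GC offset (loess span 0.5), the same with the block, and DESeq2 without ethanol-alone replicate 1 were chosen after seeing the data. The scripts were tested on simulated counts.

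Members are described by role, and some genes that the rules take in are not reported here, though counts and medians of a class include them. Of the list of other peroxisomal genes, the text names Cat and the 5 each way with the smallest p whose groups did not overlap and whose mean reached 1 CPM. Of the PPARA list it names the regulators, the 3 targets with the highest CPM and 2 Cyp4a genes. The members and lists were chosen with earlier results of these data known. Coordinates and principal transcripts came from GENCODE on GRCm38, promoters from RefSeq on GRCm38.p6.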

Additional observations from a re-analysis of the deposited data

How the results depend on the processing

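Of the 35 tested members and Cat, 28 kept their direction under all 16 alternatives, and the 8 others turned sign in at least 1. Pex3 was at -0.000199 on upper-quartile factors. Pex13 was at 0.073 on library totals, 0.0018 in limma-voom and 0.00099 with the replicate block. In DESeq2 without ethanol-alone replicate 1, Pex10 was at -0.17 and Pex11g at 0.029. With a library left out, Pex3 ranged from -0.062 to 0.056, Pex13 from -0.10 to 0.027, Pex10 from -0.19 to 0.24, Pex11g from -0.36 to 0.14, Pex26 from -0.44 to 0.10, Pex16 from -0.28 to 0.38, Uox from -0.17 (without gavage replicate 1) to 0.34 and Abcd4 from -0.11 (without gavage replicate 2) to 0.65. The cause was not tested. A group left with 1 library was assumed to vary like the other group.

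Genes called at an adjusted p under 0.05 numbered 0 in the quasi-likelihood test, 1177 in DESeq2, 549 in the likelihood-ratio test, 377 in DESeq2 without ethanol-alone replicate 1 and 0 to 31 with a library left out (12 without ethanol-alone replicate 2 and 31 without gavage replicate 2). Members called numbered 0, and 7, 4 and 4 in those first 3 alternatives. The labels do not say that replicate numbers pair libraries, and deviations of same-numbered libraries correlated at 0.587 over genes, on 2 pairs. With the replicate block 410 of 13309 genes were called and 1 member, Acaa1b (adjusted p = 0.0485), and with the length and GC offset and the block 785 genes and 4 members.

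Assembly factors lower at an unadjusted p under 0.05 numbered 1, and 2 in DESeq2, on upper-quartile factors, with no filter, with the block, with the offset and with both; leaving out a library gave 0 to 3. The same count of enzymes was 8, and 4 to 8 with a library left out. The assembly median of -0.09 was -0.019 on library totals and -0.21 to -0.013 with a library left out. The enzyme median of -0.76 was -1.07 to -0.51, and enzyme minus assembly median, -0.67, was -0.93 to -0.39 (-0.39 in DESeq2 without ethanol-alone replicate 1). The share of all genes past an unadjusted p of 0.05 is not given here for DESeq2, the block or the offset. Without that share, a higher or lower count of listed genes in those settings, above or below, cannot be read as a stronger or weaker difference. Other peroxisomal genes lower numbered 17, with 30 in DESeq2, 9 with the offset and 2 to 23 with a library left out. Those higher numbered 1, with 2 with the block, 2 with offset and block, 0 in DESeq2 without ethanol-alone replicate 1 and 0 to 5 with a library left out.

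Each group had 2 libraries, and the common coefficient of variation was 0.311. Pex5l, at 0 to 7 counts, was too low to compare.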

Other observations

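Genes of the PPARA pathway outside the peroxisome had a median log2 fold change of -0.38 after gavage. Of 18, all of them tested, 14 lay below 0, against 48.3% of all genes. At an unadjusted p under 0.05 edgeR's quasi-likelihood test had 2 lower and none higher, where 9.85% of all genes lay lower and 8.91% higher. DESeq2 called 2 lower, where it called 4.9% of all genes lower, and neither of them without ethanol-alone replicate 1. Gavage replicate 1 lay below gavage replicate 2 for 16 of these 18 targets, and for 7233 of the 13309 tested genes. Without gavage replicate 1 the median of the targets was -0.14, with 11 of 18 below 0. It was -0.62 without gavage replicate 2 and -0.31 without ethanol-alone replicate 1. The receptor gene Ppara stood at 107 and 125 CPM in ethanol alone and 168 and 126 CPM after gavage (log2 fold change 0.34, SE 0.24, edgeR adjusted p = 0.479). Its partner Rxra stood at 469 and 488 against 473 and 535 CPM (0.07, SE 0.22). The coactivator genes Ppargc1a, at 19.8 and 16.4 against 11.8 and 14.2 CPM, and Ppargc1b, at 4.87 and 4.33 against 3.76 and 3.65 CPM, both had lower gavage libraries (-0.47 and -0.31).

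Fabp1, the liver fatty acid binding protein, stood at 4381 and 2075 CPM in ethanol alone and 1355 and 1514 CPM after gavage (-1.17, SE 0.41, edgeR adjusted p = 0.238; DESeq2 adjusted p = 0.0246). Without ethanol-alone replicate 1 the log2 fold change of Fabp1 was -0.56 and its adjusted p in DESeq2 0.285. The microsomal omega-hydroxylase genes Cyp4a14, at 948 and 1152 against 220.3 and 1062 CPM, and Cyp4a10, at 347 and 475 against 76.5 and 374 CPM, were low in gavage replicate 1 and inside the ethanol-alone range in replicate 2. Their log2 fold changes of -0.71 (SE 0.71) and -0.87 (SE 0.72) thus rest on 1 library, and were 0.02 and -0.13 without it.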
